A study of Rattus norvegicus with 15 samples.

Results

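The 10 genes described here carry out the display of peptides to T cells. Cd74, RT1-Da, RT1-Db1, RT1-Ba, RT1-Bb and RT1-DMa belong to the MHC class II route, and Psmb8, Psmb9, Tap1 and Tapbp belong to the MHC class I route. They were chosen by role, as a fixed list of names, and all of their probe sets were taken from the deposited table. The list makes up 10 of 14232 named genes and 16 of 31042 tested probe sets. For each gene the results rest on the probe set with the highest mean over the 15 arrays.

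The study asked what a past pregnancy, or a course of hormones of similar length, leaves behind in the rested mammary gland. The rats were virgin Lewis females, 3 months old at assignment, and RNA of the left inguinal gland was hybridised to 1 array for each rat, 5 rats to a group. Control rats carried sham capsules of cellulose matrix for 21 days. Pregnancy rats carried the same sham capsules and went through pregnancy to term, 21 to 23 days, and their pups were removed 4 to 6 h after delivery so that no suckling took place. Hormone rats carried 2 silastic capsules for 21 days, with 100 µg of ethynyl estradiol, a synthetic estrogen, and 30 mg of megesterol acetate, a synthetic progestin. Every rat was then left to rest, about 49 days, and tissue was taken in metestrus, the phase of the estrous cycle that follows ovulation. Replicates are named by the numbers in the labels: control 1, 2, 4, 5 and 6, pregnancy 1, 2, 3, 7 and 9, and hormone 1 to 5.

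MHC class II molecules are pairs of an alpha and a beta chain that carry peptides from engulfed proteins to the surface of B cells, dendritic cells and macrophages, where helper T cells read them. The invariant chain, encoded by Cd74, fills the groove of a new class II molecule until the DM molecule helps exchange its remnant for a peptide. MHC class I molecules instead show peptides cut inside the cell by the proteasome, pumped into the endoplasmic reticulum by the TAP transporter and loaded with the help of tapasin. Class II transcription depends on the coactivator CIITA and on factors bound to the X and Y boxes of the promoters, and interferon gamma induces the genes of both routes. In the mammary gland these genes are used by resident macrophages and dendritic cells, and by the B and T cells of the inguinal lymph node embedded in the fat pad.

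The promoters of the class II chains share short elements that the class I processing genes mostly lack. The sequences below are parts of RefSeq promoters of the rat build GRCr8, read 5′ to 3′ on the strand of the gene, and all 10 genes had an entry. They are shown because they hold the shared elements, with the letters of each searched motif in capitals. In RT1-Da and RT1-Db1 the capitals mark the X box and the Y box, in RT1-Ba a CRE-like element and the Y box, in RT1-Bb the Y box alone, and in RT1-DMa a CRE-like element and the ATTGG core of the Y box.
RT1-Da: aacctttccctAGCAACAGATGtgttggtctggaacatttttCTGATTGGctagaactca
RT1-Db1: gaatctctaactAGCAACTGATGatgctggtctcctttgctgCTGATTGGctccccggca
RT1-Ba: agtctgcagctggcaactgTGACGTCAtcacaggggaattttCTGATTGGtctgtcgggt
RT1-Bb: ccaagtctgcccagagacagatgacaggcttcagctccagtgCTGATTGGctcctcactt
RT1-DMa: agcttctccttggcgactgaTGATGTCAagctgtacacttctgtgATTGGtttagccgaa
In the 3 class I processing genes that follow, the capitals mark the interferon-stimulated response element, in Tapbp as a pair of overlapping matches and in Tap1 and Psmb8 as the opposite strand.
Tap1: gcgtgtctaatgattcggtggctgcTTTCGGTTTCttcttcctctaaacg
Tapbp: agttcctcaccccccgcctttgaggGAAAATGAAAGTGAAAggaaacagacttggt
Psmb8: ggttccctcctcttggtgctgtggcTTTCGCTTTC

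These stretches lie upstream of or across the annotated starts on chromosome 20. They are chr20:4515321-4515380 on the plus strand for RT1-Da, chr20:4560228-4560287 on the minus strand for RT1-Db1, chr20:4576969-4577028 on the plus strand for RT1-Ba, chr20:4604165-4604224 on the minus strand for RT1-Bb and chr20:4712385-4712444 on the minus strand for RT1-DMa. The other stretches are all on the minus strand, at chr20:4668640-4668689 for Tap1, chr20:4967873-4967928 for Tapbp and chr20:4657026-4657060 for Psmb8. Each motif was searched on both strands from 250 bases before to 50 bases after the start of 33469 promoters. The Y box CTGATTGG stood in RT1-Da, RT1-Db1, RT1-Ba, RT1-Bb and Psmb9, against 3.5% of all promoters, and in Psmb9 it lay downstream of the start. Its core ATTGG, which lies inside the Y box, stood in 8 of the 10 promoters, all 6 class II genes among them, and in 37.5% of all promoters. The X box, searched as AGCAAC and GATG with any letter between them, stood in RT1-Da and RT1-Db1 and in 0.0478% of all promoters, 16 in number. The CRE-like element TGANNTCA stood in RT1-Ba and RT1-DMa and in 15.3% of all promoters. The interferon-stimulated response element, searched as GAAA and GAAA with any 2 letters between them, stood in Psmb8, Tap1 and Tapbp, against 3.92% of all promoters. A match is a description of letters, and a missing match says only that these letters are not in the window.

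All 10 probe sets were called present, by the authors' detection call, on 15 of 15 arrays, and between 65.3% and 68.4% of the probe sets on each array were called present. The gland's own markers were present on every array, with 11 of 11 genes of the mammary epithelium list and 7 of 7 of the adipocyte list. Another tissue of the fat pad varied from rat to rat. The mean centred level of 17 measured of 20 listed lymph node genes was 2.01, 2.09 and 2.07 in control replicates 1, 4 and 5 and 1.66 in pregnancy replicate 3, and from −1.29 to 0.41 on the other 11 arrays. Ms4a1, which encodes the B cell antigen CD20, was called present on 3 control, 3 pregnancy and 1 hormone arrays. Skeletal muscle genes, 7 measured of 8, varied as well, from −1.97 to 0.68 in control, −1.50 to 2.50 in pregnancy and −1.21 to 3.70 in hormone, with pregnancy 7, pregnancy 9 and hormone 4 the highest. The level of 12 macrophage genes ran from −0.30 to −0.11 in control, from 0.02 to 0.35 in pregnancy and from −0.07 to 0.20 in hormone, so that it was lower on every control array than on any other array. The differences of the 10 genes, and some of those of the partner genes, are therefore also given without the 4 arrays rich in lymph node transcripts.

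Of the 6 MHC class II genes, 5 stood highest on control replicates 1, 4 and 5 and on pregnancy replicate 3, and RT1-DMa was also high on pregnancy replicate 1. In mean they were lower after pregnancy and after hormone than in control, with differences from −0.57 to −0.13 on the log2 scale, and none of these differences passed the test across all probe sets. Expression is given as log2 values, on which a step of 1 is a doubling, and each probe set is compared with itself across arrays, since the levels of different probe sets are not on a common scale. The highest value on an array was 14.45 to 14.57, and Cd74 and the class II chains come near it, and whether their differences are compressed there was not tested. In whole tissue a lower level can come from fewer cells that make a transcript or from less RNA per cell, and the arrays cannot tell these apart.

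Cd74 encodes the invariant chain (probe set 1367679_at). Its log2 level was 13.89, 13.16, 13.82, 14.02 and 13.31 in control replicates 1, 2, 4, 5 and 6. In the pregnancy replicates 1, 2, 3, 7 and 9 it was 13.46, 13.00, 13.69, 12.87 and 13.33, and in hormone replicates 1 to 5 it was 13.27, 13.47, 13.21, 13.03 and 13.03. Control replicates 1, 4 and 5 lay above every other array, while control 2 and control 6 lay inside the range of the treated rats, so the groups overlapped. The means were 13.64 ± 0.38 in control, 13.27 ± 0.33 after pregnancy and 13.20 ± 0.18 after hormone (SD, n = 5 each). The difference from control was −0.37 (SE 0.18; 95% interval −0.76 to 0.02) after pregnancy, a 1.29-fold lower level with an adjusted p of 0.245. After hormone it was −0.44 (SE 0.18; interval −0.82 to −0.05), 1.35-fold lower, with an adjusted p of 0.202. These p-values and those that follow come from limma, fitted to all 15 arrays, with Benjamini-Hochberg adjustment over 31042 probe sets and a threshold of 0.05.

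RT1-Da encodes the alpha chain of RT1.D, the rat counterpart of human HLA-DR (1370883_at). In the same order of replicates it stood at 13.78, 13.22, 13.81, 13.73 and 13.41 in control, 13.42, 12.96, 13.63, 12.84 and 13.28 after pregnancy, and 13.21, 13.42, 13.40, 12.94 and 13.29 after hormone. The highest arrays were again control 1, 4 and 5, followed by pregnancy 3, and the groups overlapped. RT1-Da was at −0.36 after pregnancy (SE 0.16; unadjusted p = 0.0365, adjusted p = 0.199, limma) and at −0.34 after hormone (SE 0.16; adjusted p = 0.237). It was the only gene of the 10 with a lower mean after pregnancy, 13.23 ± 0.33, than after hormone, 13.25 ± 0.19, a difference far smaller than its SE of 0.16.

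RT1-Db1 encodes the beta chain of RT1.D (1370383_s_at). Its values were 13.15, 12.29, 13.05, 13.23 and 12.30 in control, 12.60, 12.00, 12.86, 11.80 and 12.38 after pregnancy, and 12.43, 12.63, 12.23, 12.01 and 12.16 after hormone. The control rats fell into 3 high and 2 low arrays with no value between 12.30 and 13.05, and the low ones were matched or exceeded by arrays of both other groups. The differences were −0.47 after pregnancy (SE 0.23; adjusted p = 0.237, limma) and −0.51 after hormone (SE 0.23; adjusted p = 0.225). RT1-Db1 had another probe set called present on all 15 arrays (1370382_at), with 11.33, 10.17, 10.98, 10.91 and 10.49 in control, 10.36, 9.82, 10.57, 9.39 and 9.99 after pregnancy, and 10.61, 10.49, 10.40, 10.01 and 10.06 after hormone. On it the pregnancy group was further from control than on the headline probe set, at −0.75 (SE 0.23; 95% interval −1.25 to −0.25; unadjusted p = 0.00596, adjusted p = 0.106), a 1.68-fold lower level. After hormone it was at −0.46 (SE 0.23; adjusted p = 0.267). The near relative RT1-Db2 lies next to RT1-Db1 and had no probe set under its own name, so its part in either signal was not tested.

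RT1-Ba encodes the alpha chain of RT1.B, the rat counterpart of human HLA-DQ (1370822_at). Its log2 level was 12.96, 12.12, 13.06, 13.14 and 12.33 in control, 12.50, 11.86, 12.80, 11.71 and 12.27 after pregnancy, and 12.20, 12.43, 12.28, 11.80 and 12.05 after hormone. The spread over the 15 arrays, from 11.71 to 13.14, was 1.43, shared with RT1-Db1 as the widest among the 10 genes. RT1-Ba had the largest differences of the 10, −0.50 after pregnancy (SE 0.23; 1.41-fold lower; adjusted p = 0.224, limma) and −0.57 after hormone (SE 0.23; 1.49-fold lower; adjusted p = 0.194). Its 3 other probe sets were hardly detected. They were called present on 1 array (1377334_at, mean 6.82) or on none (1381593_x_at, mean 9.62, and 1392334_at, mean 9.64), and their differences lay between −0.16 and 0.04. Averaged over all 4 probe sets, RT1-Ba was at −0.15 after pregnancy and −0.17 after hormone.

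RT1-Bb encodes the beta chain of RT1.B (1371033_at). It stood at 13.21, 12.57, 13.14, 13.50 and 12.76 in control, 12.88, 12.27, 13.07, 12.30 and 12.74 after pregnancy, and 12.61, 12.92, 12.52, 12.40 and 12.51 after hormone. The 4 highest arrays were those of its partner chain, control 5, 1 and 4 and then pregnancy 3, and the groups overlapped. The differences were −0.38 after pregnancy (SE 0.18; adjusted p = 0.239, limma) and −0.44 after hormone (SE 0.18; adjusted p = 0.203). Its other probe set (1371065_at, mean 4.39) was called present on no array.

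RT1-DMa encodes the alpha chain of the DM molecule, which edits the peptides on class II molecules inside the cell (1370904_at). Its values were 10.61, 10.16, 10.54, 10.64 and 10.19 in control, 10.57, 10.11, 10.44, 10.12 and 10.26 after pregnancy, and 10.31, 10.38, 10.36, 9.99 and 10.08 after hormone. Pregnancy 1 lay among the high control arrays here, above pregnancy 3, and the whole range of 0.65 was narrower than for the 4 chain genes. RT1-DMa was at −0.13 after pregnancy (SE 0.12; 95% interval −0.39 to 0.14; adjusted p = 0.557, limma) and at −0.20 after hormone (SE 0.12; interval −0.46 to 0.06; adjusted p = 0.347). Its partner RT1-DMb, the beta chain of DM, was at −0.15 (SE 0.10; adjusted p = 0.384) and −0.19 (SE 0.10; adjusted p = 0.277), and at −0.03 in both comparisons without the 4 lymph-rich arrays.

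**Figure D1:**
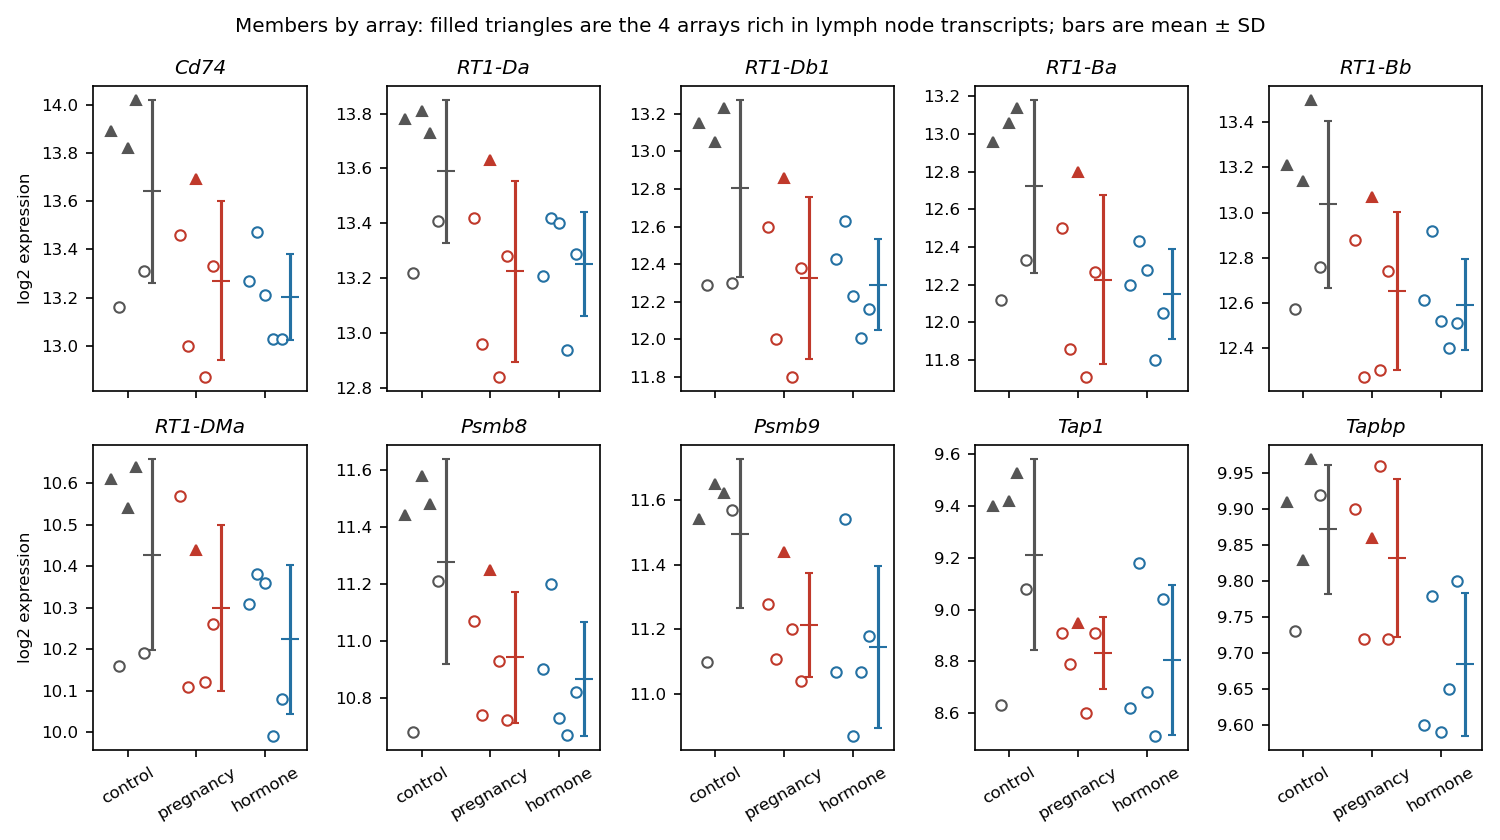
Log2 expression of the 10 genes on each array (y axis; x axis, group of 5 rats; bars, mean ± SD), with arrays rich in lymph node transcripts as filled triangles. For Cd74 the triangles run from 13.69 to 14.02 and the open circles from 12.87 to 13.47, in all 3 groups, while Tapbp shows no such step, with a range of 0.38.

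The class I processing genes had the same order of group means, control above pregnancy above hormone, in all 4 cases. Their differences from control ran from −0.38 to −0.04 after pregnancy and from −0.41 to −0.19 after hormone, and none passed the test. Psmb8 and Tap1 were highest on the 3 lymph-rich control arrays. On control 6 Psmb9, at 11.57, and Tapbp, at 9.92, lay within the range of those 3 arrays. Psmb8, at 11.21, and Tap1, at 9.08, lay below that range on control 6. Psmb8 was still higher there than on any other array outside the lymph-rich ones, and Tap1 higher than on every pregnancy array.

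Psmb8 encodes an inducible catalytic subunit of the immunoproteasome, which replaces the constitutive subunit Psmb5 (1367786_at). It stood at 11.44, 10.68, 11.58, 11.48 and 11.21 in control, 11.07, 10.74, 11.25, 10.93 and 10.72 after pregnancy, and 10.90, 11.20, 10.73, 10.67 and 10.82 after hormone. Control 2 was the second lowest of all 15 arrays, next to hormone 4, so the control group spanned nearly the full range. Psmb8 was at −0.34 after pregnancy (SE 0.16; 1.26-fold lower; adjusted p = 0.23, limma) and at −0.41 after hormone (SE 0.16; 1.33-fold lower; adjusted p = 0.184).

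Psmb9 encodes another inducible catalytic subunit, the counterpart of Psmb6 (1370186_at). Its values were 11.54, 11.10, 11.65, 11.62 and 11.57 in control, 11.28, 11.11, 11.44, 11.20 and 11.04 after pregnancy, and 11.07, 11.54, 10.87, 11.07 and 11.18 after hormone. All control arrays but replicate 2 lay between 11.54 and 11.65, a band that hormone 2 also reached. Psmb9 was at −0.28 after pregnancy (SE 0.13; adjusted p = 0.213, limma) and at −0.35 after hormone (SE 0.13; unadjusted p = 0.0145), and the latter had the smallest adjusted p of the 10 genes in that comparison, 0.171.

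Tap1 encodes a subunit of the peptide transporter (1388149_at). It stood at 9.40, 8.63, 9.42, 9.53 and 9.08 in control, 8.91, 8.79, 8.95, 8.60 and 8.91 after pregnancy, and 8.62, 9.18, 8.68, 8.51 and 9.04 after hormone. The pregnancy arrays lay close together, with an SD of 0.14 against 0.37 in control, and hormone 2 stood above every pregnancy array. Tap1 was at −0.38 after pregnancy (SE 0.17; adjusted p = 0.201, limma) and at −0.41 after hormone (SE 0.17; adjusted p = 0.196). Its other probe set (1375379_at, mean 5.37) was called present on no array.

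Tapbp encodes tapasin, which bridges class I molecules to the transporter (1369726_at). Its values were 9.91, 9.73, 9.83, 9.97 and 9.92 in control, 9.90, 9.72, 9.86, 9.96 and 9.72 after pregnancy, and 9.60, 9.78, 9.59, 9.65 and 9.80 after hormone. Control and pregnancy arrays covered the same band, and 3 of the 5 hormone arrays lay below all of them. Tapbp was at −0.04 after pregnancy (SE 0.07; 95% interval −0.19 to 0.11; adjusted p = 0.754, limma) and at −0.19 after hormone (SE 0.07; interval −0.33 to −0.04; 1.14-fold lower; adjusted p = 0.175). It was the gene with the largest difference between both exposures, 0.15 higher after pregnancy than after hormone (SE 0.07; unadjusted p = 0.0508, adjusted p = 0.503).

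Over the list, pregnancy minus control was negative in 10 of 10 genes, with a median of −0.37 and a range from −0.50 to −0.04, where 45.3% of all probe sets were lower in mean and the median of all was 0.02. Among the 17967 probe sets called present on all 15 arrays, as these 10 are, 57.4% were lower, the median was −0.04, and 16.2% were lower at an unadjusted p under 0.05. The test passed 0 of the 10 genes, against 0.197% of all probe sets, and 4 had an unadjusted p under 0.05 (RT1-Da, RT1-Ba, Psmb9 and Tap1), against 21.9% of all probe sets, 10.6% in the lower direction. None of the 10 had all pregnancy arrays below all control arrays, which 1.74% of all probe sets had. Hormone minus control was also negative in 10 of 10 genes, with a median of −0.41 and a range from −0.57 to −0.19, where 42% of all probe sets were lower in mean and the median of all was 0.03. Among those called present on all 15 arrays 50.2% were lower, the median was 0.00, and 15.3% were lower at an unadjusted p under 0.05. Here too 0 of the 10 passed, against 0.029% of all probe sets, and 9 had an unadjusted p under 0.05, RT1-DMa being the exception, against 20.7% of all probe sets, 11% in the lower direction. No gene of the 10 had separated groups, as against 1.31% of all probe sets. Both comparisons use the same 5 control arrays, so their common sign is not counted as 2 observations, and genes induced together are not independent of each other.

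Leaving out control replicate 2, an array with low class II genes and a low lymph node level, was the only removal of a single array that let genes of the list pass. Without it 2 genes passed as lower after pregnancy, Psmb8 at −0.49 (adjusted p = 0.0473, limma) and Tap1 at −0.52 (adjusted p = 0.0483). After hormone 3 passed, Psmb8 at −0.56 (adjusted p = 0.0295), Psmb9 at −0.45 (adjusted p = 0.0393) and Tap1 at −0.55 (adjusted p = 0.0378). The calls over all probe sets moved with the same array, from 61 to 1430 after pregnancy and from 9 to 1884 after hormone. The authors' deposited table called 0 of the 10 genes, among 300 calls for pregnancy, 5 for hormone and 0 between both exposures, and its adjusted p-values for the 10 lay between 0.227 and 0.818 after pregnancy and between 0.177 and 0.481 after hormone.

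Between both exposures the genes of the list lay close together. Pregnancy minus hormone had a median of 0.07 and a range from −0.02 to 0.15, with 0 of 10 genes at an adjusted or unadjusted p under 0.05, against 0.00322% and 9.96% of all probe sets. The arrays set wide bounds on this difference, with a 95% interval from −0.42 to 0.57 for RT1-Ba and from −0.20 to 0.34 for Psmb9.

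**Figure D2:**
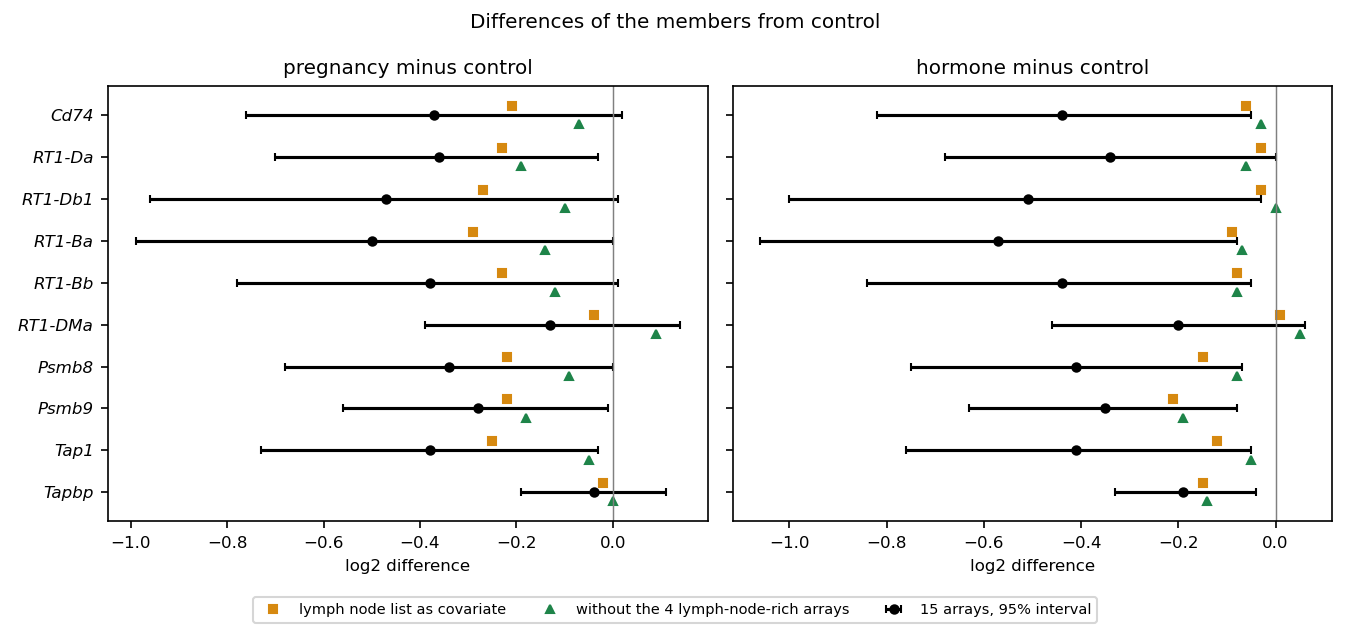
Difference from control in log2 units (x axis) for each of the 10 genes (y axis), after pregnancy and after hormone, with the 95% interval of the fit to 15 arrays as a black bar. Squares give the fit that has the lymph node level as covariate and triangles the fit without the 4 lymph-rich arrays, and for Cd74 after hormone the 3 values are −0.44, −0.06 and −0.03.

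For Cd74, RT1-Da, RT1-Db1, RT1-Ba, RT1-Bb and Psmb8, 6 of 10 genes, the 4 arrays rich in lymph node transcripts were the 4 highest of the 15, which was so for 5.71% of all probe sets. In the other 4 genes an array outside these 4 interposed, with pregnancy 1 at 10.57 for RT1-DMa, control 6 at 11.57 for Psmb9, hormone 2 at 9.18 for Tap1 and pregnancy 7 at 9.96 for Tapbp. In mean centred log2 units the class II genes stood at 0.49, 0.46 and 0.60 on control 1, 4 and 5 and at 0.31 on pregnancy 3. Control 2 and control 6, with lymph node levels of −1.15 and −1.07, stood at −0.19 and −0.06. Hormone arrays ran from −0.41 to 0.10 and the other pregnancy arrays from −0.50 to 0.13. The SD in control was larger than in hormone for 8 of 10 genes, against 67.0% of all probe sets.

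Without the 4 lymph-rich arrays, which leaves 2 control, 4 pregnancy and 5 hormone arrays, the median difference of the 10 genes was −0.09 after pregnancy and −0.07 after hormone. In each comparison 9 of 10 genes were lower in mean, among them Tapbp after pregnancy and RT1-Db1 after hormone at 0.00. At an unadjusted p under 0.05 (limma) stood 0 of 10 genes in each. Over all 31042 probe sets, 4772 after pregnancy and 2177 after hormone had such a p. Cd74 was then at −0.07 after pregnancy and −0.03 after hormone, and RT1-Ba at −0.14 and −0.07. RT1-DMa turned to 0.09 and 0.05. With the lymph node level as a covariate on all 15 arrays, the median was −0.22 after pregnancy and −0.08 after hormone. After pregnancy 10 of 10 genes were lower and 3 had an unadjusted p under 0.05 (limma), against 6982 of 31042 probe sets. After hormone 9 of 10 were lower and 0 had such a p, against 2982 probe sets. How many of all probe sets were lower in mean was not counted in these fits. Psmb9 after hormone stood at −0.21 with the covariate and −0.19 without the 4 arrays, against −0.35 in the full fit. Tapbp stood at −0.15 and −0.14, against −0.19 in the full fit. A fit with the macrophage level as a covariate was added after seeing the data. The medians of the 10 genes were then −0.56 after pregnancy and −0.57 after hormone, with 0 of 10 passing. The macrophage level was lower on every control array than on any other array. Its part and that of the group therefore cannot be told apart in this fit.

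**Figure D3:**
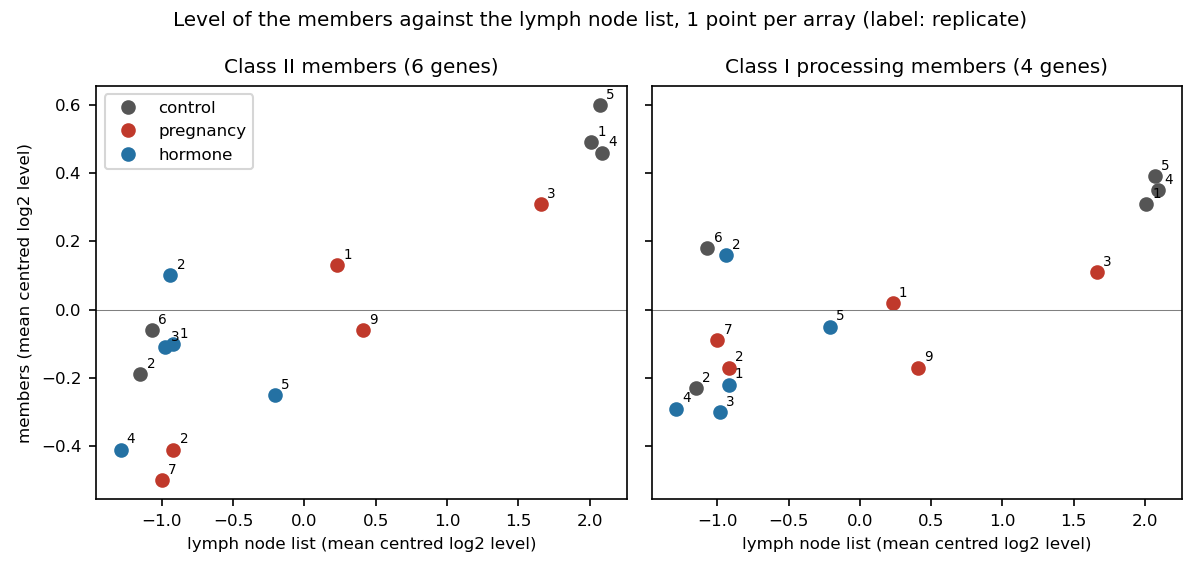
Mean centred log2 level of the 6 class II genes and of the 4 class I processing genes (y axes) against that of the lymph node list (x axis), 1 point for each array, labelled by replicate. Control 1, 4 and 5 and pregnancy 3 sit apart at list levels from 1.66 to 2.09, and the other 11 arrays spread in class II level from −0.50 to 0.13.

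Because the arrays fall into these separate clusters, the relation was examined within the 11 others only. Over them Pearson's r with the lymph node list had a median of 0.40 and ran from −0.06 (Psmb9) to 0.45 (RT1-DMa), and Spearman's rho had a median of 0.35. In the permutation test, 0 of 10 genes passed, with adjusted p-values of 0.351 or more over the 10 relations. Without the 2 arrays farthest from the list's median the median r was 0.05. Group means were then taken out, and they were the means of all arrays, the lymph-rich ones included. The control mean of the list was 0.79, against −1.15 on control 2 and −1.07 on control 6. The arrays left out thus set both low, which can raise r. The values that follow therefore cannot decide the relation within the 11 arrays, and their permutation p-values may be too small. With these means taken out, 6 of 10 genes passed (Cd74, RT1-Da, RT1-Db1, RT1-Ba, RT1-Bb and Tap1; median r over the 10 of 0.72; smallest adjusted p = 0.0189, permutation). Without the 2 farthest arrays 0 passed. The median r was then 0.59 over 9 arrays, with 0.78 for RT1-Da, 0.69 for RT1-Ba and 0.69 for RT1-Bb.

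The other genes of the class II route did not move as a body. Of 15 measured of 18 listed partners, 1 passed as higher after pregnancy and 0 as lower, with a median difference of −0.13, and 0 passed after hormone. The gene that passed was Ctsd, which encodes the lysosomal protease cathepsin D, with means of 12.60 in control, 13.13 after pregnancy and 12.93 after hormone. It rose by 0.54 after pregnancy (SE 0.09; adjusted p = 0.0408, limma) and stood at 0.34 after hormone (SE 0.09; adjusted p = 0.143). The call for Ctsd was narrow. It was kept in 4 of 15 fits that left out 1 array (control 2, control 5, pregnancy 3 or hormone 5) and lost in the others, with differences from 0.49 to 0.60 and adjusted p-values from 0.0197 to 0.125. Beside it, 12 of 12 macrophage genes were higher in mean after pregnancy, where 54.7% of all probe sets were higher. Their median was 0.22, with a range from 0.02 (Csf1r) to 1.32 (Gpnmb). The test passed 3 of them, Gpnmb, Mpeg1 at 0.97 and Itgam at 0.44, against 0.197% of all probe sets. After hormone 12 of 12 were higher as well, with a median of 0.26 and 0 passing, where 58% of all probe sets were higher. Since the macrophage level was lower on every control array than on any other, its part in the Ctsd difference and that of the group cannot be told apart. Without the 4 lymph-rich arrays Ctsd was at 0.51 (SE 0.11) and did not pass (adjusted p = 0.159, limma).

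Of 4 regulators of class II transcription on the list, 0 passed. Ciita, which encodes the master coactivator, was called present on 4 control, 3 pregnancy and 2 hormone arrays and stood at −0.44 after pregnancy (SE 0.38; adjusted p = 0.512, limma) and −0.88 after hormone (SE 0.38; adjusted p = 0.216). Rfx5, a subunit of the complex that binds the X box, was at −0.47 (SE 0.14; adjusted p = 0.097) and −0.51 (SE 0.14; adjusted p = 0.139), and its partner Rfxap was at −0.24 (SE 0.07; adjusted p = 0.0971) and −0.15. Rfxank, the remaining subunit, was called present on no array and stood at −0.13 and 0.00. Without the 4 lymph-rich arrays Ciita was at 0.33 after pregnancy and 0.13 after hormone, Rfx5 at −0.15 and −0.12, and Rfxap at −0.24 and −0.13. Among other enzymes that prepare peptides and the invariant chain for class II, Ctss, cathepsin S, was at 0.17 and 0.21, Lgmn, legumain, at 0.12 and 0.24, and Ifi30, the lysosomal thiol reductase, at −0.09 and −0.19. Of the costimulatory genes, Cd86 was at −0.16 and 0.02, and Cd80 was called present on no array.

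Among the partners of class I, 10 measured of 16 listed, 0 passed in either comparison, with medians of −0.02 after pregnancy and 0.01 after hormone. B2m, the light chain of class I molecules, was at −0.02 (SE 0.05; adjusted p = 0.858, limma) and 0.05 (SE 0.05; adjusted p = 0.585). Tap2, the other subunit of the transporter, was at −0.02 and 0.00 with an SE of 0.17, against −0.38 and −0.41 for Tap1, and the difference between both subunits was not tested. Tap2 was at 0.41 in both comparisons without the 4 lymph-rich arrays (adjusted p = 0.307 and 0.698, limma). Of the class I heavy chain genes measured, RT1-M3-1 and RT1-N3 were lower in mean by about as much as the 10 genes. RT1-S3 and RT1-A3 lay closer to control. RT1-S3 was at −0.26 and −0.20 (SE 0.15), and −0.22 and −0.10 without the 4 lymph-rich arrays. RT1-A3 was at 0.00 and −0.08 (SE 0.07), and 0.12 and 0.04 without them. RT1-M3-1 was at −0.34 and −0.33 (SE 0.12; unadjusted p = 0.0117 and 0.015, adjusted p = 0.132 and 0.173, limma), and −0.11 and −0.03 without the 4 arrays. RT1-N3 was at −0.41 and −0.44 (SE 0.17; unadjusted p = 0.0266 and 0.0202, adjusted p = 0.174 and 0.183, limma), and −0.07 and 0.00 without them. The remaining immunoproteasome and activator genes had medians of −0.13 and −0.17 over 4 of 4 measured, with 0 passing. Psmb10, the third inducible subunit, was at −0.21 (SE 0.10; adjusted p = 0.241) and −0.23 (SE 0.10; adjusted p = 0.218), and without the 4 lymph-rich arrays at −0.11 and −0.10. The activator subunits Psme1 and Psme2 were at −0.14 and −0.12 after pregnancy and at −0.21 and −0.12 after hormone.

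In the constitutive proteasome 0 of 14 subunits, all measured, passed in either comparison. In mean 10 were higher after pregnancy (median 0.06), where 54.7% of all probe sets were higher, and 9 after hormone (median 0.02), where 58% were. Among the probe sets called present on all 15 arrays, as these 14 are, 42.6% were higher after pregnancy and 49.8% after hormone. Psmb5, Psmb6 and Psmb7, the subunits that Psmb8, Psmb9 and Psmb10 replace, stood at 0.16, 0.22 and 0.30 after pregnancy, with Psmb7 at an adjusted p of 0.0736 (limma), and at 0.08, 0.17 and 0.12 after hormone. The pregnancy values were 0.05, 0.01 and 0.27 without the 4 lymph-rich arrays. Of 13 measured interferon signalling genes 0 passed in either comparison, with medians of −0.07 and 0.06. Irf1, an interferon-induced transcription factor, was at −0.41 (SE 0.17; adjusted p = 0.181) and −0.38 (SE 0.17; adjusted p = 0.234), and at −0.04 and 0.04 without the 4 lymph-rich arrays.

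All genes of the list but Cd74 lie in a single stretch of chromosome 20, in the rat MHC, where the RefSeq order on GRCr8 runs from RT1-Da to Tapbp over 31 protein-coding genes. Tap1 lies between Psmb8 and Psmb9, and Tap2 is the neighbour of Psmb8 on the other side. In this stretch stand 13 genes with no role on the antigen presentation lists, 10 of them called present on all 15 arrays. Those 10 had a median difference of −0.10 after pregnancy, from −0.27 to 0.14, and of −0.12 after hormone, from −0.37 to 0.20, with 7 and 8 of them lower in mean. Among them, B3galt4 was at −0.27 and −0.37 and Slc39a7 at 0.11 and 0.20. Over all probe sets called present on every array the median was −0.04 after pregnancy and 0.00 after hormone.

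**Figure D4:**
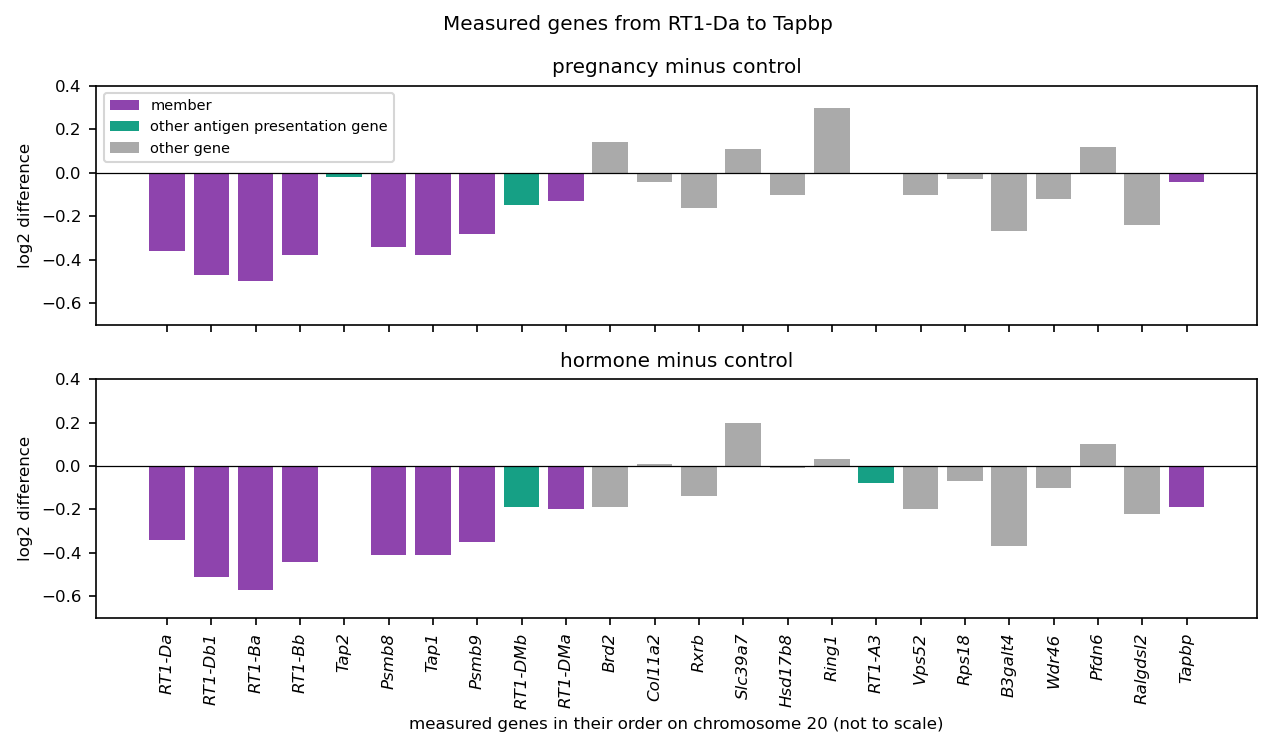
Difference from control in log2 units (y axes) of the measured genes from RT1-Da to Tapbp, in their order on chromosome 20 (x axis, not to scale), after pregnancy above and after hormone below. The 4 class II chain genes at the left run from −0.50 to −0.36 after pregnancy, and Tap2, the next measured gene, stands at −0.02.

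The genes whose pattern over the 15 arrays was most like that of the class II genes, after group means were taken out, were Klf2 (r = 0.952), Itsn2 (0.949), Gbp4 (0.943), Mast3 (0.940), Cd40 (0.938), Napsa (0.937), Fgd2 (0.932) and Slfn4 (0.932), out of 14222 genes compared. Cd40, a costimulatory receptor of B cells and dendritic cells, was itself at −0.51 after pregnancy (SE 0.28; adjusted p = 0.29, limma) and −0.60 after hormone (SE 0.28; adjusted p = 0.237), and at −0.02 and 0.06 without the 4 lymph-rich arrays. The class I processing genes had other nearest patterns, among them Xrn1 (r = 0.919), Irf1 (0.899), Ccl5 (0.889), Rnf168 (0.875), Naa15 (0.875), Parp14 (0.864) and Icam1 (0.852). These values of r describe arrays that share their lymph node content, and carry no test.

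Over the 11 arrays outside the lymph-rich cluster, the 10 genes were also set against the mean centred level of the 13 interferon signalling genes, a relation chosen after the values were seen. Pearson's r had a median of 0.55 and ran from 0.18 (Tapbp) to 0.82 (Tap1). Tap1 was the only gene to pass (permutation p = 0.00143, adjusted over the 10 relations 0.0143), and its Spearman's rho was 0.75 (permutation p = 0.0116, adjusted 0.116). Without the 2 arrays farthest from the list's median, its r was 0.65 with an adjusted permutation p of 0.124. With group means taken out r for Tap1 was 0.95, and 8 of the 10 genes passed by Pearson's r and 1, Tap1, by Spearman's rho. These means too were those of all 15 arrays, and the permutation p-values behind these counts may be too small. Hormone 2, with the highest interferon level of the 15 arrays at 0.32, was also the highest hormone array for 9 of the 10 genes, Tapbp being the exception. How often this was so over all probe sets was not counted, and the 10 genes are not independent of each other.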

How the data were processed

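The authors' tables hold deposited log2 expression by probe set, from an Affymetrix rat array, with a detection p-value and a present, marginal or absent call for each array, per the file headers. GCOS, RMA, MAS5 and affy are named as tools, per the submitters' processing notes, without version or role. The log2 fold changes and adjusted p-values credited to the authors' deposited table are theirs. The genome build of the probe sets is not given in the sources used here. Values of the deposited tables were equal (largest difference 0), and 15 columns of arrays that matched none of the labelled samples were not used.

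The 57 control probe sets were left out and 31042 tested. In limma 3.58.1 (R 4.3.3), lmFit and eBayes were fitted to 15 arrays in 3 groups, without covariates, two-sided, with 12 residual and 2.70 prior degrees of freedom and Benjamini-Hochberg adjustment; the threshold was an adjusted p of 0.05. The fit was tested on simulated data. Python 3.11.15, pandas 2.3.3, numpy 2.4.6 and scipy 1.17.1 made the tables, and permutation tests drew 100000 resamples. Array number, 5 in each group, limits the precision.

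Of the 10 genes, 9 were found by symbol and RT1-DMa, listed under an older symbol, by its Entrez identifier. Named beside them were a fixed set of pathway genes, pathway genes that passed, and the 8 genes nearest in pattern to each route, with 1 probe set for each gene, the brightest; 1 of the genes so chosen is not reported here. The genes, lists and tests were chosen with earlier results of these data known. Hybridisation between close relatives among the RT1 genes was not resolved. Alternatives changed the scaling, the filter, the weights, the arrays used, the covariates and the probe sets averaged.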

Additional observations from a re-analysis of the deposited data

Results flagged for a closer look

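Psmb9 on control replicate 2 stood apart from its group. Its log2 level was 11.10, the lowest of the 5 control arrays, and the nearest other control array was at 11.54. That gap took 0.79 of the group's whole range, above Dixon's critical value of 0.71 for 5 samples. Of 30 groups of 5 arrays examined, 10 genes in 3 groups, 1 stood out in this way, and at that critical value chance alone marks about 1 group in 20. The same array was low for Psmb8, at 10.68, and for Tap1, at 8.63, without passing that limit.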

How the results depend on the processing

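Over the alternatives listed in advance and those added after seeing the data, 0 of the 10 genes passed in any comparison, except without control replicate 2, where the number was 2 after pregnancy and 3 after hormone. The number of all probe sets that passed moved far more. It was 61 for pregnancy against control, 9 for hormone against control and 1 for pregnancy against hormone in the fit to 15 arrays. It became 1154, 1374 and 4 with array weights, 8, 1 and 6 with only the 2 groups compared, and 165, 1 and 0 with the lymph node level as covariate. Without the 4 lymph-rich arrays it was 10, 0 and 4. With the muscle list as a covariate it was 28, 5 and 1, and with an intensity trend it was 40 for pregnancy. Added after seeing the data, the fit without the 3 muscle-rich arrays passed 0, 0 and 0 (limma, with 2607, 4812 and 1117 at an unadjusted p under 0.05). The fit with the macrophage list as a covariate, also added then, passed 1455, 24 and 5. In it the covariate and the difference from control cannot be told apart. Leaving out 1 array at a time gave 3 to 1430 for pregnancy, 0 to 1884 for hormone and 0 to 9 between them, with 1430 and 1884 without control replicate 2. The causes were not tested.

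The median of the 10 genes moved beyond the spread of their mean over arrays in 3 cases: hormone with the lymph node covariate (−0.08), and without the 4 lymph-rich arrays both pregnancy (−0.09) and hormone (−0.07). With all probe sets of a gene averaged, undetected ones included, the median was −0.23 for pregnancy and −0.27 for hormone, and RT1-Ba was at −0.15 and −0.17. With 1 array left out the median ran from −0.49 to −0.28 for pregnancy and from −0.56 to −0.33 for hormone. RT1-DMa turned to 0.09 for pregnancy and 0.05 for hormone without the 4 arrays, and to 0.01 for hormone with the lymph node covariate. Differences of either sign between pregnancy and hormone lay near 0 and turned often. With the lymph node covariate they were −0.14 for Cd74, −0.23 for RT1-Db1, −0.20 for RT1-Ba, −0.15 for RT1-Bb, −0.04 for RT1-DMa, −0.08 for Psmb8, −0.01 for Psmb9 and −0.14 for Tap1. Without the 4 lymph-rich arrays they were −0.04 for Cd74, −0.10 for RT1-Db1, −0.07 for RT1-Ba, −0.04 for RT1-Bb and 0.00 for Psmb8 and Tap1. RT1-Da was at 0.01 with array weights and at 0.01 without the 3 muscle-rich arrays, and RT1-Db1 was at −0.12 with its probe sets averaged. With 1 array left out these differences ran from −0.04 to 0.17 for Cd74, −0.12 to 0.07 for RT1-Da, −0.10 to 0.17 for RT1-Db1, −0.07 to 0.21 for RT1-Ba, −0.04 to 0.16 for RT1-Bb, 0.00 to 0.16 for Psmb8 and −0.05 to 0.12 for Tap1.

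The call for Ctsd after pregnancy held in 6 of 11 alternatives that kept or left out more than single arrays, with differences from 0.45 to 0.76 and adjusted p-values from 0.028 to 0.58 (limma). Of the relations within 11 arrays, that with the lymph node list went from 0 genes to 6 with group means taken out. That with the interferon list went from 1 gene to 0 by Spearman's rho, 0 without the 2 farthest arrays and 8 with group means taken out. The counts with group means taken out rest on p-values that may be too small. Replicate numbers recur across groups, and no pairing of the rats is stated. After removal of group means, the correlation of same-numbered arrays ran from −0.25 (control 4 with hormone 4) to 0.38 (control 2 with pregnancy 2). For arrays of different number it ran from −0.67 (control 6 with pregnancy 3) to 0.74 (control 4 with pregnancy 3). Arrays also differ in lymph node and muscle content, so these values cannot decide whether equal numbers share a batch. With the replicate number as a block 0, 0 and 0 probe sets passed (limma; 3740, 7521 and 3053 at an unadjusted p under 0.05), Tapbp was at 0.01 for pregnancy, and RT1-Da was at 0.07 between pregnancy and hormone.

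Beyond these settings, the 5 arrays in each group limit what can be seen: the 95% interval of the RT1-Ba difference after hormone ran from −1.06 to −0.08, and that of Cd74 after pregnancy from −0.76 to 0.02.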
